A study of Mus musculus with 15 samples.

Results

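The genes of Notch signaling were examined in the H3K27ac profile of a mouse tumor, with 10 genes chosen for their roles: the ligand genes Jag1, Jag2 and Dll1, the receptor genes Notch1, Notch2 and Notch3, the DNA-binding factor gene Rbpj, and the target genes Hes1, Hey1 and Heyl. Each peak of the list that overlapped the RefSeq span of 1 of these genes, or the 50 kb on either side, was taken, which gave 156 of 122375 peaks (0.127%). A peak was counted as a promoter peak when it overlapped the 2 kb on either side of a start site of the gene, as a gene body peak when it otherwise overlapped the span, and as a flank peak when it did neither.

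The tumors model fusion-positive rhabdomyosarcoma, a soft tissue cancer in which PAX3 is fused to FOXO1 (P3F), and the series held 15 CUT&RUN libraries: 6 H3K27ac and 3 IgG libraries of MCP tumors, and 3 H3K27ac and 3 IgG libraries of TCP tumors. MCP mice carried Cre from Myf6 (Myf6-Cre), which acts in myogenic cells, together with floxed Cdkn2a written Cdkn2a(Flox/Flox), the P3F allele written Pax(3P3F/P3F) and the tdTomato reporter R26-tdTom. In CUT&RUN an antibody directs a nuclease to its target and the released DNA is sequenced; H3K27ac marks active promoters and enhancers, and IgG gives the background. The list belonged to 1 library, MCP H3K27ac replicate 5 by its title, made from tumor cells sorted as alive. There were thus no replicates, no control group and no comparison with TCP tumors. The age of the mouse was not given in the sources used here.

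Notch signaling passes between touching cells. A ligand of the Jagged or Delta-like type on one cell binds a Notch receptor on the next, ADAM proteases and then gamma-secretase cut the receptor, and the freed intracellular part enters the nucleus, joins RBPJ and a Mastermind coactivator, and turns on repressors of the HES and HEY families. Without the intracellular part RBPJ sits with corepressors. In skeletal muscle the pathway is known for keeping satellite cells, the muscle stem cells, undifferentiated.

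The strongest promoter peak of Jag1, Dll1 and Notch2 is shown first as the 200 bases centred on its summit, because these windows hold the highest promoter signal of the ligand and receptor genes. They were read from GRCm38.p6 (mm10) on the plus strand. Capitals mark TGGGAA, the core letters of an RBPJ site, or its reverse complement TTCCCA. The strongest promoter peaks of Jag1 and Notch2 had no match in these 200 bases, whereas that of Dll1 had 1.
Jag1 chr2:137117600-137117799: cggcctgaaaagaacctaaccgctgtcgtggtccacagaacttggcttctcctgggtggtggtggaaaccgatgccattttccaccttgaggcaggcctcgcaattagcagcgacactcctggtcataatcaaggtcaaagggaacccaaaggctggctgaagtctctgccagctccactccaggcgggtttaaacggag
Dll1 chr17:15376479-15376678: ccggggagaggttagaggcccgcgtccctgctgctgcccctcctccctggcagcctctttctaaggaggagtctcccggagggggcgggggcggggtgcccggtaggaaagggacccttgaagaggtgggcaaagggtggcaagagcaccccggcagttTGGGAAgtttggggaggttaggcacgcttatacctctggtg
Notch2 chr3:98014279-98014478: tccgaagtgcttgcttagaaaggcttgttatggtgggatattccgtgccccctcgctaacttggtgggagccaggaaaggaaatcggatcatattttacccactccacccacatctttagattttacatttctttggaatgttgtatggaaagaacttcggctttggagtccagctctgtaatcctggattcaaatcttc

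The next windows are 300 bases centred on a summit, shown for Jag1, Rbpj, Notch2 and Dll1. These genes and Notch3, whose window is not shown, had peaks with at least 2 RBPJ core matches. Each is the window of the gene with the most matches, with ties broken by fold enrichment, and capitals also mark CAGCTG, the E box bound by MyoD. The Jag1 and Rbpj windows held 3 matches each and those of Notch2 and Dll1 held 2 each. All 4 lay in flanks, but gene body windows of Notch2 (intron 1) and Dll1 (exon 12) tied with those shown at 2 matches, and an Rbpj promoter window also held 2. The Jag1 window lay 67.1 kb downstream of its start site, inside the neighboring gene Slx4ip. The other windows lay 11.4 kb upstream of the first Rbpj start site, 20.4 kb upstream of Notch2 and 9.04 kb downstream of the nearer Dll1 start site.
Jag1 chr2:137049292-137049591: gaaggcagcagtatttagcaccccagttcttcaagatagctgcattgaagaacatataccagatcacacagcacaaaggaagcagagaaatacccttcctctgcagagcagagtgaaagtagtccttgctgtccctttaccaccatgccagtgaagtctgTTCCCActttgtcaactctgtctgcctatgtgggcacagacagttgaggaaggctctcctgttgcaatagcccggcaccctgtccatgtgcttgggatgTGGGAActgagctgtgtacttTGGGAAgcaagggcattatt
Rbpj chr5:53544260-53544559: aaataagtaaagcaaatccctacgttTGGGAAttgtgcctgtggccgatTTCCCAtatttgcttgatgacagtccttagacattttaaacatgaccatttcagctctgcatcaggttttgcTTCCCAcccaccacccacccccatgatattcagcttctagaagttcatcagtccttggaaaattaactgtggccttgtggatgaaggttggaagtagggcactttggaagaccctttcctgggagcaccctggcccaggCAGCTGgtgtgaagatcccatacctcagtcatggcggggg
Notch2 chr3:97993002-97993301: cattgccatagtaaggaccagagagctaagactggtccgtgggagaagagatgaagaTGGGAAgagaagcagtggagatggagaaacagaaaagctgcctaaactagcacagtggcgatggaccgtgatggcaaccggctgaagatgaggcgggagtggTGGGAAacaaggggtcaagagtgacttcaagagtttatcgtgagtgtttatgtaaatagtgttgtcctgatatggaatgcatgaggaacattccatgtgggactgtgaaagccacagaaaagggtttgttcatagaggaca
Dll1 chr17:15366630-15366929: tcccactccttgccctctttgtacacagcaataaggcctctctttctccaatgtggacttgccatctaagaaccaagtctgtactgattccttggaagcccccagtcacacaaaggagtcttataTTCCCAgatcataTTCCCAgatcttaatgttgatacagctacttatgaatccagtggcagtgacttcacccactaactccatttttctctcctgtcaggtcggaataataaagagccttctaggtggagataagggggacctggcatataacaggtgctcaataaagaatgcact

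Promoter peaks were found at 5 of the 10 genes: Jag1 and Dll1 among the ligands, Notch2 among the receptors, Rbpj, and Hes1 among the targets (50.0%, Wilson 95% interval 23.7% to 76.3%). Among 21000 protein-coding genes 45.6% had a peak at a promoter, so the share of the 10 genes was near that of all genes. A peak overlapped the span of 7 of the 10 genes, beside 50.9% of all protein-coding genes, and a peak lay in the span or the 50 kb on either side of 9 of the 10, beside 77.9%. Of the 156 peaks, 17 were promoter peaks, 69 gene body peaks and 70 flank peaks. Rbpj and Notch2 held 89 of them (57.1%). A gene without a peak is a gene where no region passed the caller's threshold in this library, and in sorted tumor cells a mark in few cells cannot be told apart from a weak mark in many.

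**Figure D1:**
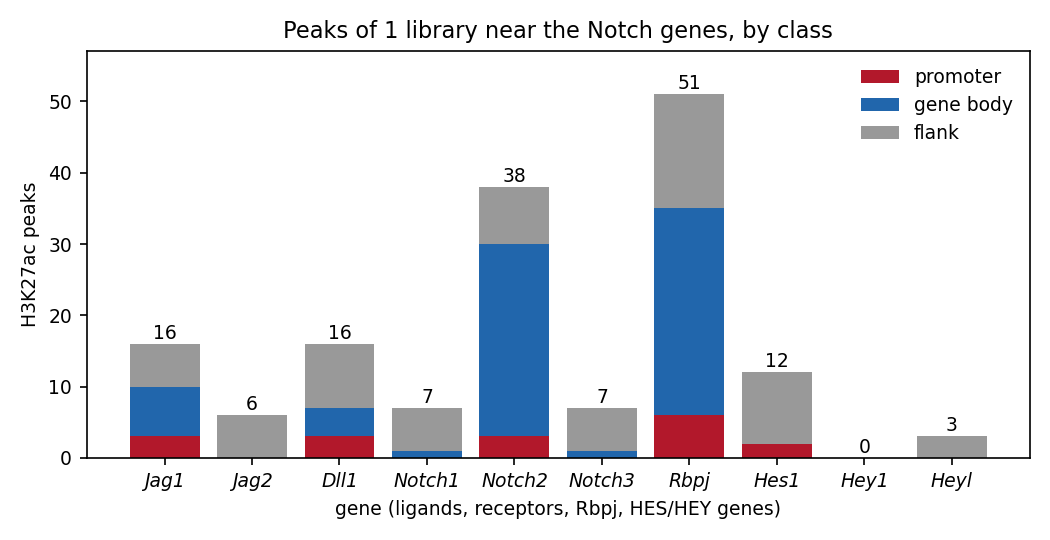
Number of H3K27ac peaks near each of the 10 Notch genes in 1 library (y axis, a count), stacked as promoter, gene body and flank. Rbpj (51) and Notch2 (38) stand above the rest, Jag1 and Dll1 have 16 each, and Hey1 has 0.

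The values of a peak need a word on precision. Fold enrichment is the caller's ratio of H3K27ac fragments over the summit to its background estimate, with 1 added to each. The fragments are first scaled by 0.885, so the fold is lower than the plain ratio of fragments to background. That background was at its lowest value, 1.05 fragments, at 60.9% of the peaks of the Notch genes and 47.0% of all peaks, where the fold restates the number of fragments. The fold is a deposited value, and the number of fragments over each summit was solved from the caller's fold and p. The median peak of the list had 13 fragments (quartiles 10 and 17) and the median peak of the Notch genes 12 (quartiles 10 and 15). At least 20 fragments lay over the summit in 15 of the 156 peaks (9.62%), beside 15.8% of all peaks. Intervals on fragments are exact Poisson intervals at 95% and cover counting error only.

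Among the ligand genes Jag1 and Dll1 carried promoter peaks and Jag2 did not. Jag1, which encodes a Jagged ligand (minus strand, chr2:137081451-137116520), had 16 peaks, of which 3 were at the promoter, 7 in the gene body and 6 in the flank. Its promoter peaks had fold enrichments of 7.11, 6.94 and 6.94. The peak at 7.11 had 23 fragments (interval 14.6 to 34.5), lay 1.18 kb upstream of the start site at chr2:137117634-137117935 and was 302 bp wide. The other pair lay 0.965 kb and 1.36 kb downstream, in exon 2 and intron 2. The 3 values were thus almost equal, and their fragment intervals overlapped.

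Inside Jag1 the fold enrichment of the 7 gene body peaks ran from 3.50 to 6.94, and all 7 lay in introns. The one at 6.94 was in intron 5 (chr2:137097490-137097583). The strongest peak near Jag1 was a flank peak of fold enrichment 8.24 at chr2:137049263-137049715, with 18 fragments (interval 10.7 to 28.4). That interval overlapped the one at the promoter. Every peak near Jag1, flanks included, had Jag1 as the gene with the nearest start site (16 of 16). All 6 flank peaks, however, lay inside the neighboring gene Slx4ip, and their assignment to Jag1 was not tested.

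Dll1, which encodes a Delta-like ligand (minus strand, chr17:15367354-15376932), also had 16 peaks, with 3 at the promoter, 4 in the gene body and 9 in the flank. Its promoter peaks had fold enrichments of 6.98, 4.36 and 4.23. The strongest, at chr17:15376527-15376871 in intron 1, lay 0.353 kb from the start site with 16 fragments (interval 9.15 to 26.0). Gene body peaks were weak throughout, from 3.93 to 4.36 in fold enrichment with 8 or 9 fragments each, and the highest value was shared by 3 of the 4. A run of 3 peaks just past the end of the gene reached 6.94 (chr17:15365596-15365814).

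The highest fold enrichment in the Dll1 window, 8.67 at chr17:15396327-15396970, did not belong to Dll1 alone. That peak overlapped the promoter of Fam120b, whose start site lay 0.357 kb away, and Fam120b also covered the next 2 peaks. In all 4 of the 9 flank peaks of Dll1 overlapped a promoter of another gene, 3 at Fam120b and 1 at Gm10510. The assignment of such peaks to Dll1 was not tested.

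Jag2, the second Jagged ligand gene (minus strand, chr12:112907803-112929812), had no peak at its promoter or in its span. Its 6 flank peaks had fold enrichments from 4.36 to 5.65. The highest value, 5.65, occurred in 2 peaks, at chr12:112940926-112941099 and chr12:112897434-112897672. Of the 6 peaks, 3 overlapped the promoter of Nudt14, and the nearest summit lay 7.68 kb from the start site of Jag2, inside Nudt14. No peak of the 6 had a start site of Jag2 as its nearest.

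**Figure D2:**
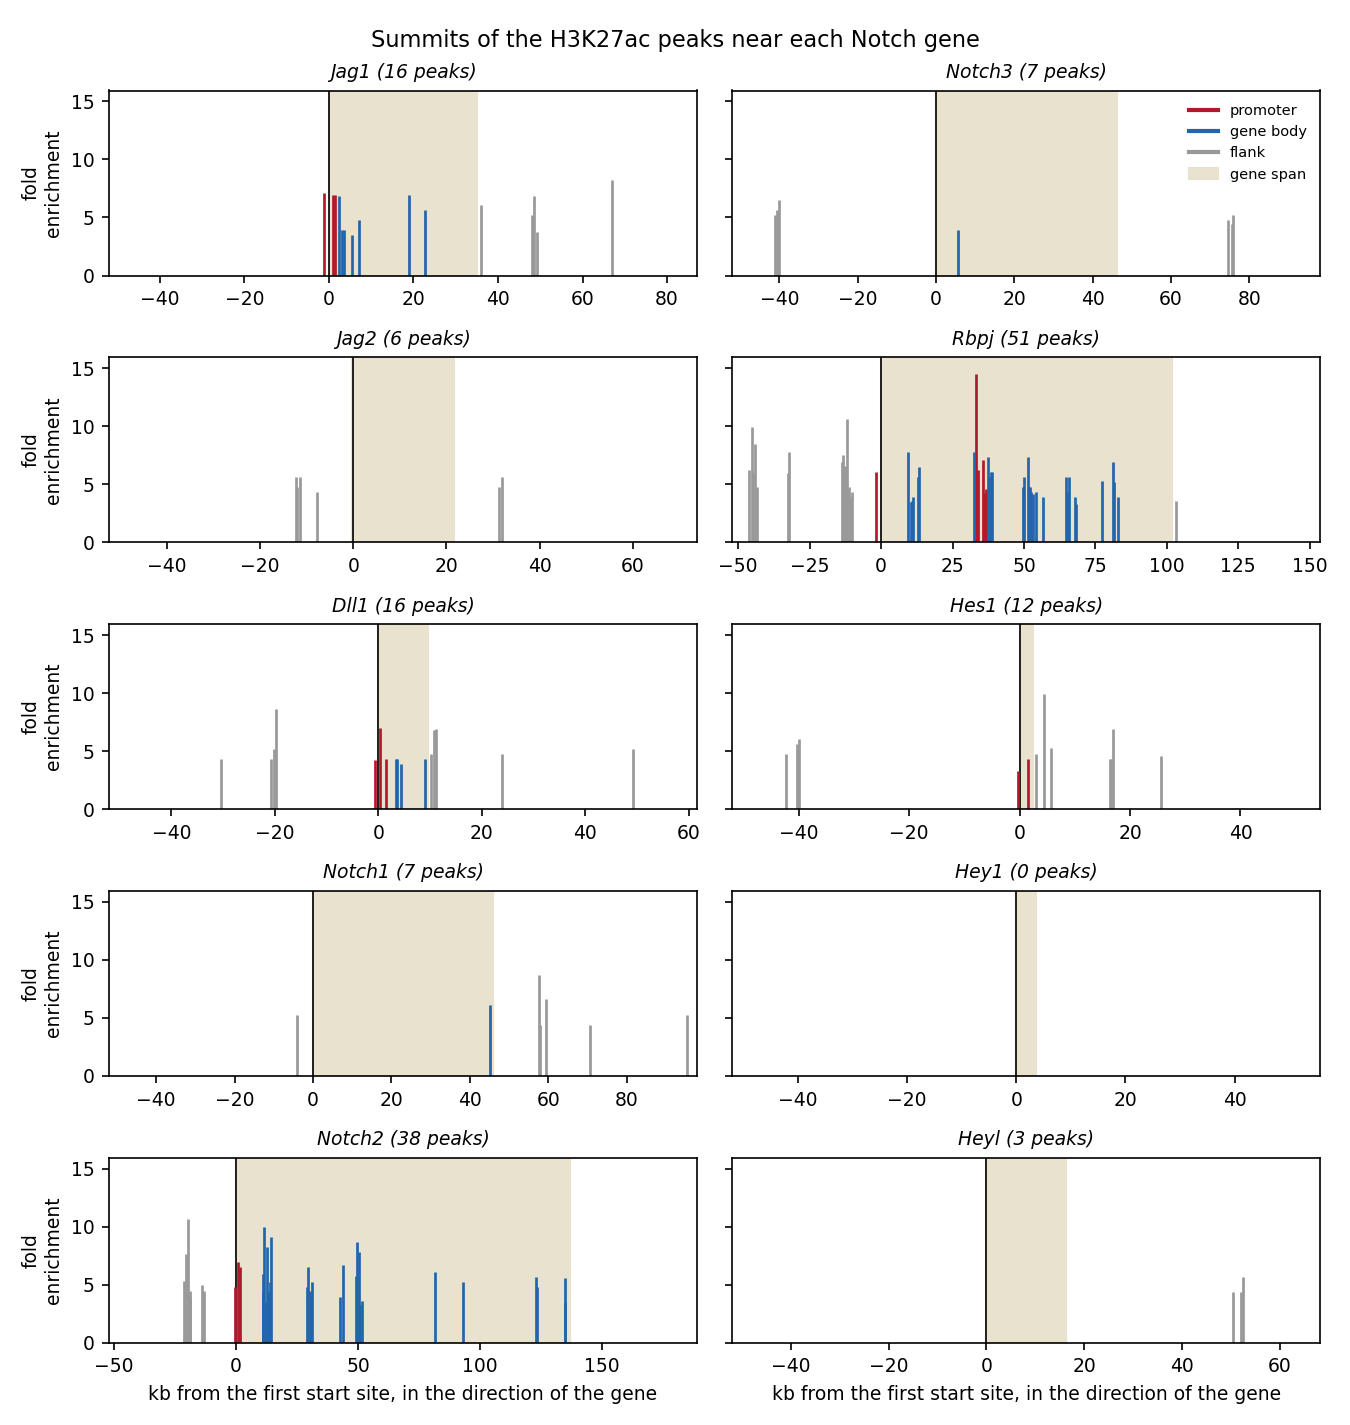
Position of each peak summit (x axis, kb from the first start site in the direction of the gene) and its fold enrichment (y axis) for the 10 genes, with the gene span shaded and peaks colored by class. Summits lie along the span of Rbpj and mostly in the first introns of Notch2, cluster at the start of Jag1 and Dll1, and lie outside the spans of Jag2 and Heyl.

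Of the receptor genes, Notch2 was the one with a marked promoter and a marked gene body, while Notch1 and Notch3 had no promoter peak and a single gene body peak each. Notch2 (plus strand, chr3:98013538-98150367) had 38 peaks, with 3 at the promoter, 27 in the gene body and 8 upstream in the flank. The promoter peaks had fold enrichments of 4.79, 6.94 and 6.51 and lay 0.265 kb upstream, 0.841 kb downstream and 1.73 kb downstream of the start site. The middle peak, at chr3:98014086-98014573, had 15 fragments (interval 8.40 to 24.7).

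Most Notch2 peaks lay in its first introns. In intron 1, past the promoter, 9 peaks sat within 4.33 kb (chr3:98024355-98028681), and their fold enrichments included 9.96, 9.10 and 8.24. The peak at 9.96 (chr3:98024816-98025593, 11.4 kb from the start site) was the strongest gene body peak of the 10 genes and had 22 fragments (interval 13.8 to 33.3). A longer run of 12 peaks spanned 22.7 kb across introns 1 and 2 and held a peak 2016 bp wide with 37 fragments (interval 26.1 to 51.0). Beyond intron 2 only 6 of the 27 gene body peaks remained, in introns 5, 11 and 25 and in exon 34, the last exon.

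The strongest Notch2 peak was upstream of the gene. At chr3:97993538-97993984, 19.8 kb before the start site, the fold enrichment was 10.7 with 26 fragments (interval 17.0 to 38.1), the highest of all 70 flank peaks near the 10 genes. The 8 flank peaks lay between 13.2 kb and 21.1 kb upstream, and each had Notch2 as the gene with the nearest start site. None overlapped a promoter of another gene.

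Notch1 (minus strand, chr2:26457902-26503822) had 7 peaks and no promoter peak. Its gene body peak, of fold enrichment 6.08 with 13 fragments (interval 6.92 to 22.2), lay in exon 34, the last exon, 45.2 kb from the start site (chr2:26458604-26458687), where the gene 0610009E02Rik overlaps. The nearest summit to the start site was 4.04 kb upstream with a fold enrichment of 5.22. The highest value in the window, 8.71 at chr2:26446167-26446669, lay at the promoters of Sec16a and 0610009E02Rik. Of the 6 flank peaks, 4 overlapped promoters of neighboring genes.

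Notch3 (minus strand, chr17:32120820-32166896) also had 7 peaks and no promoter peak. The gene body peak was in intron 2, 5.58 kb from the start site, at chr17:32161215-32161352, with a fold enrichment of 3.93 and 8 fragments (interval 3.45 to 15.8). The 6 flank peaks had fold enrichments from 4.46 to 6.51, and 3 of them lay about 75 kb downstream at the promoter of Pdxk-ps.

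Rbpj, whose product brings the Notch intracellular part or corepressors to DNA, had more peaks than any other of the 10 genes and the strongest of them. The gene (plus strand, chr5:53555779-53657445) has 3 curated start sites, and 51 peaks lay in its window: 6 at a promoter, 29 in the gene body and 16 in the flank. The strongest promoter peak reached a fold enrichment of 14.5 with 48 fragments (interval 35.4 to 63.6). It lay in intron 1 of the longest transcript, 1.51 kb upstream of the second start site. At the first start site the sole peak lay 1.92 kb upstream with a fold enrichment of 6.08 and 13 fragments (interval 6.92 to 22.2), and the interval of the strongest peak lay wholly above it. The intervals of the other 4 promoter peaks, all near the internal start sites, overlapped it.

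The other promoter peaks of Rbpj had fold enrichments of 7.11, 6.26, 4.59 and 4.27, all near the internal start sites. Gene body peaks ran from 3.28 to 7.77, and the one at 7.77 (chr5:53563363-53565955, intron 1) was 2593 bp wide, with 34 fragments (interval 23.5 to 47.5). It was the widest peak near the 10 genes. All 29 gene body peaks were in introns, and from chr5:53588141 to chr5:53638591 a run of 23 peaks outside promoters spanned 50.5 kb when peaks closer than 12.5 kb were joined. Runs with at least as many peaks made up 2.89% of the 19471 runs in the list.

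Upstream of Rbpj 15 flank peaks fell into 3 groups, between 43.3 kb and 46.3 kb, at about 32 kb, and between 10.2 kb and 13.6 kb before the first start site. The strongest, at chr5:53543581-53544203, had a fold enrichment of 10.7 and 35 fragments (interval 24.4 to 48.7). It lay 12.0 kb upstream. The group farthest away held a peak of 9.96 at chr5:53509768-53510675. Of the 51 peaks, 50 had Rbpj as the gene with the nearest start site; the other was the single downstream flank peak, nearest to Cckar.

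Of the HES and HEY genes among the 10, Hes1 alone had promoter peaks. Hes1 (plus strand, chr16:30065357-30067796), a repressor gene that Notch turns on in many tissues, had 12 peaks, 2 at the promoter and 10 in the flank. The promoter peaks were weak. At chr16:30066739-30066861, 1.46 kb downstream of the start site, the fold enrichment was 4.36 with 9 fragments (interval 4.12 to 17.1), and at chr16:30064886-30065039, 0.374 kb upstream, it was 3.28 with 10 fragments (interval 4.80 to 18.4). Their -log10 q values were 2.58 and 1.68, below the median of 4.59 over the 156 peaks.

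The strongest Hes1 peak lay just outside its promoter window. At chr16:30068900-30069846, 4.38 kb downstream of the start site, the fold enrichment was 9.96 with 22 fragments (interval 13.8 to 33.3) against 4.36 and 3.28 at the promoter. Its fragment interval overlapped theirs. A further group lay 16.4 kb to 16.9 kb downstream, where the highest fold enrichment was 6.94. The 3 upstream peaks, at about 40 kb, had start sites of other genes nearest to them.

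Hey1 (minus strand, chr3:8663359-8667038) had no peak in its span or within 50 kb. The nearest summit in the list was 162 kb from its start site. Heyl (plus strand, chr4:123233556-123249870) had 3 flank peaks and none at its promoter or in its span. Their fold enrichments were 4.36, 4.36 and 5.65, the strongest at chr4:123285867-123286217, and all 3 lay inside Pabpc4, more than 50 kb from the start site of Heyl. Neither HEY gene therefore had a peak with its own start site as the nearest.

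Set against all genes with a promoter peak, the promoters of the Notch genes ranged from near the top to near the bottom. The strongest promoter peak of Rbpj stood above 96.8% of the 9569 protein-coding genes with such a peak. This rank depends on the 2 kb window, because that peak lay 1.51 kb upstream of the nearest start site and outside a 1 kb window. Within 1 kb of a start site the strongest Rbpj peak had a fold enrichment of 7.11, and ranks at 1 kb were not computed. Those of Jag1, Dll1 and Notch2 stood at the percentiles 48.5, 47.8 and 44.2, close to the median gene, whose strongest promoter peak had a fold enrichment of 7.24. That of Hes1 stood at 5.95, so few genes with a promoter peak had a weaker one.

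Across the 156 peaks the median fold enrichment was 5.22 (quartiles 4.36 and 6.51), the same to these digits as over the whole list. Promoter peaks had a median of 6.26 (range 3.28 to 14.5), beside 5.49 over all 26771 promoter peaks of the list. Gene body and flank peaks had medians of 4.79 and 5.22, beside 5.11 over all 95604 peaks outside promoters. By gene, medians ran from 4.36 at Heyl to 5.87 at Jag1, and Rbpj followed with 5.65. The peaks were 160 bp wide at the median (quartiles 105 and 276 bp), beside 163 bp in the whole list. Differences of this size between medians were not tested, because peaks of 1 library are not replicates.

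**Figure D3:**
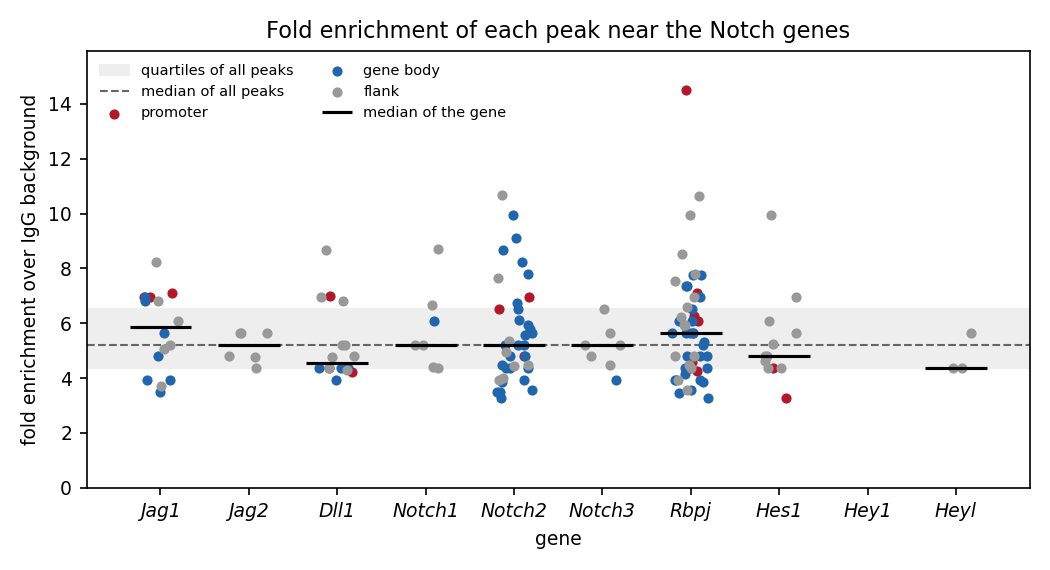
Fold enrichment over the IgG background (y axis) of each of the 156 peaks, by gene and class, with the median of each gene as a black bar and the median and quartiles of all 122375 peaks as a dashed line and a gray band. Most points lie between 4 and 8, and the Rbpj promoter peak at 14.5 stands apart.

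Peak density differed widely between the genes. Rbpj had 25.3 peaks per 100 kb of span and flanks, more than 94.4% of protein-coding genes. Notch2 followed with 16.0 (percentile 83.3), Dll1 with 14.6 (80.3), Jag1 with 11.8 (73.3) and Hes1 with 11.7 (72.9). The median gene had 5.62 per 100 kb (quartiles 0.901 and 12.5). Jag2 (4.92), Notch1 (4.80), Notch3 (4.79), Heyl (2.58) and Hey1 (0) were below it. The 5 genes above the median were the 5 with a promoter peak, but promoter peaks are themselves counted in the density.

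**Figure D4:**
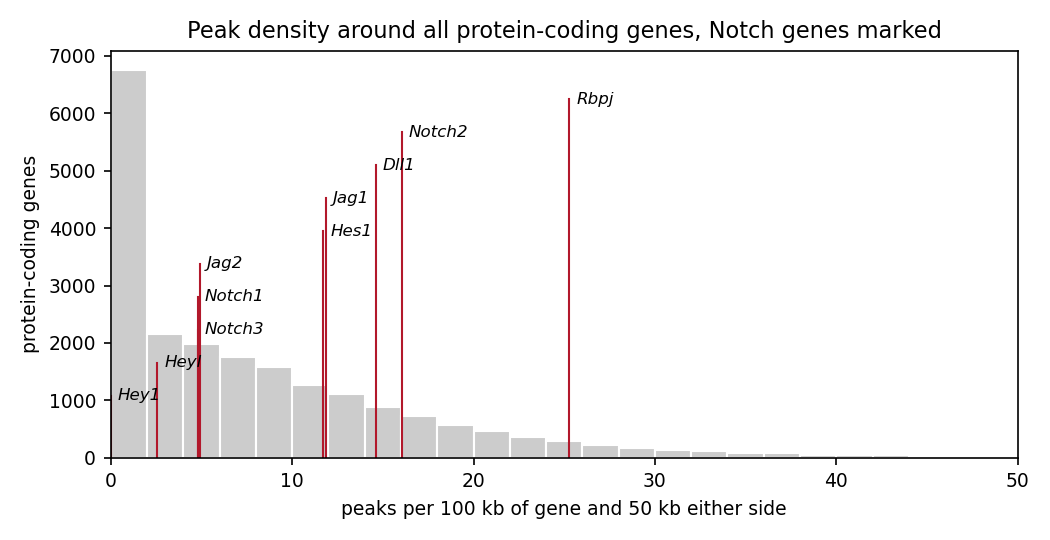
Distribution of peak density (x axis, peaks per 100 kb of gene span and 50 kb flanks) over 21000 protein-coding genes (y axis, number of genes), with the 10 Notch genes marked by red lines whose heights carry no value. The axis ends at 50, which leaves out 49 genes; Rbpj lies in the right tail and Hey1 at 0.

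Promoter CpG content, with which the share of genes with a promoter peak rises, did not sort the 10 genes. All protein-coding genes were ranked by their ratio of observed to expected CpG and divided into 10 equal bins, and the share with a promoter peak ran from 6.00% in bin 1, the lowest, to 80.3% in bin 10. Rbpj fell in bin 3, where 17.4% of genes had a promoter peak, and Hes1 in bin 6 (60.4%). Jag2 fell in bin 10 (80.3%) and Hey1 in bin 9 (76.6%), and neither had a promoter peak. Notch2 and Jag1, in the same bins 10 and 9, did. In bin 5 (43.4%) Dll1 had a promoter peak whereas Notch3 and Heyl had none, and Notch1, in bin 7 (66.3%), had none either. CpG was measured 500 bp either side of the first start site, which for Rbpj is not the internal site with the strongest peak.

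Neighboring genes shared part of the flanks. Of the 70 flank peaks 15 (21.4%) overlapped a promoter of another gene: 4 each near Notch1 and Dll1, 3 each near Notch3 and Jag2, and 1 near Heyl. Of all 156 peaks 118 (75.6%) had 1 of the 10 genes as the gene with the nearest start site. By that measure no peak in the windows of Notch1, Jag2 or Heyl, and 1 in that of Notch3, belonged to the gene. Peaks were not linked to genes by any measure of contact or expression.

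The letters of an RBPJ core were present in 55 of the 156 windows of 300 bases centred on the summits (35.3%, Wilson 95% interval 28.2% to 43.0%), beside 26.2% of the windows of all peaks. The letters were TGGGAA on either strand. By class the share was 47.1% at promoters (8 of 17), 34.8% in gene bodies (24 of 69) and 32.9% in flanks (23 of 70). Matches were found in 18 of 51 windows at Rbpj, 11 of 38 at Notch2, 9 of 16 at Dll1, 7 of 16 at Jag1, 4 of 7 at Notch3, 3 of 12 at Hes1, 2 of 7 at Notch1, 1 of 6 at Jag2 and 0 of 3 at Heyl. Of the 156 windows 39 share bases with another window of the same gene, so the windows are not independent and the intervals are too narrow. A match describes letters, not a bound site.

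Longer RBPJ letters, GTGNGAA, which contain the core where N is G, occurred in 19.2% of the windows of the Notch genes and in 16.6% of all windows. The E box bound by HES and HEY repressors, CACGTG, occurred in 2 of the 156 windows (1.28%, interval 0.352% to 4.55%), beside 3.77% of all windows. The pair were the Hes1 peak 1.46 kb downstream of the start site and a flank peak of Jag2. The N box CACNAG, also a HES site, occurred in 41.7% (beside 43.8%), and the MyoD E box CAGCTG in 17.3% (beside 14.6%). Each was searched on both strands, no stretch of 6 letters can match more than 1 of the last 3 motifs, and windows of the Notch genes and of all peaks had similar base content, with median GC of 46.2% and 45.3%.

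**Figure D5:**
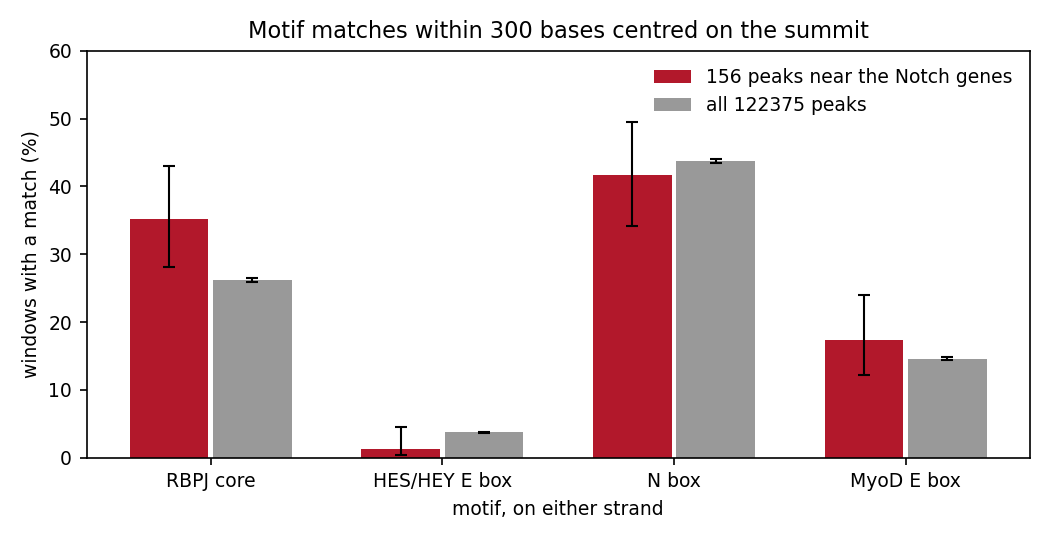
Share of windows with a motif match (y axis, percent) in the 156 windows of the Notch genes and in the windows of all 122375 peaks, for 4 motifs; bars are shares and error bars Wilson 95% intervals that treat windows as independent. The RBPJ core shares were 35.3% and 26.2%, and the HES/HEY E box shares 1.28% and 3.77%.

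Promoter sequences from 250 bases before to 50 bases after a start site were taken from RefSeq (GRCm38.p6) for 7 of the 10 genes; Hes1, Hey1 and Heyl had no entry. TGGGAA or its reverse complement was present in both Rbpj promoters of the table, and in none of those of Notch1, Notch2, Notch3, Jag1, Jag2 and Dll1. Among all 32851 promoters 25.6% held it. CACGTG was in none of the promoters of the 7 genes, beside 7.15% of all.

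The rest of the pathway was described over 37 further genes, of which 27 had a promoter peak (73.0%, Wilson 95% interval 57.0% to 84.6%), beside 45.6% of all protein-coding genes. Most of the 37 fell in CpG bins 8 to 10, where 70.6% to 80.3% of all genes had a promoter peak. The share of the 37 and that of all genes are thus not matched for CpG content. The 73.0% lay inside the range of those bins, so it is not read as an excess over all genes. No share matched for CpG content was computed. The genes of receptor cleavage and of the nuclear complex were marked throughout: 7 of 7 cleavage genes and 6 of 6 coactivator or corepressor genes had a promoter peak, and these genes fell in CpG bins 4 to 10, where 25.6% to 80.3% of all genes had one. Among the others it was 7 of 9 genes that inhibit or turn over the receptor, 3 of 4 genes that add sugars to it and 2 of 3 genes of ligand uptake. The 5 highest promoter fold enrichments were those of Ncstn (15.5) and Psenen (9.96), which encode gamma-secretase subunits, Maml1 (14.6), a Mastermind coactivator, Adam17 (10.8), a protease that cuts the receptor, and Fbxw7 (10.8), which directs its degradation. The values of Ncstn and Maml1 lay above the 14.5 of Rbpj. The median over the 27 genes was 6.94, beside 7.24 over all genes with a promoter peak.

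Of 8 further ligand, receptor and HES/HEY genes 2 had a promoter peak, beside 45.6% of all genes. None of the ligand genes Dll3, Dll4 and Dlk1 had a promoter peak, nor a peak in the span or within 10 kb of it. No share of all genes was computed at 10 kb to set beside this. The windows of these ligand genes held 7, 3 and 2 peaks. The receptor gene Notch4 had 11 peaks in its window and none at its promoter. Hes6 had 2 promoter peaks, the stronger of fold enrichment 4.76, and Hes7 had 1 of 4.32, whereas Hes5 and Hey2 had none. The windows of Hes6 and Hes7 held 20 and 35 peaks (percentiles 88.8 and 97.7 for density), and those of Hes5 and Hey2 held 5 and 3. The promoter values of Hes6 and Hes7 were close to the 4.36 of Hes1.

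Of 22 markers of the labelled cell type and of others 2 had a promoter peak, beside 45.6% of all genes; the markers fell in CpG bins 1 to 7, where 6.00% to 66.3% of all genes had one. A peak lay in the span or within 10 kb of it at 3 of 8 myogenic, 6 of 8 endothelial and 3 of 6 leukocyte genes. The share of all genes at 10 kb was not computed. It was 50.9% for the span alone and 77.9% for the span with 50 kb either side. Such counts grow with gene length, and Erg and Tek are far longer than Myod1 and Myog, so the 3 sets are not comparable by them. Of 8 myogenic genes Myf6, whose locus carries the Cre, alone had a promoter peak (fold enrichment 5.97), and Myod1, Myog, Myf5, Pax7, Des, Cdh15 and Chrna1 had none. The windows of Myf5 and Myf6, which overlap each other, held 29 and 36 peaks (percentiles 95.9 and 98.2 for density), whereas those of Myog and Pax7 held 0. Between them were Chrna1 with 17 peaks (percentile 80.1), Des with 15 (78.6), Myod1 with 11 (69.9) and Cdh15 with 7 (51.4). None of 8 endothelial genes had a promoter peak, and their windows held 0 to 15 peaks. Of 6 leukocyte genes only Cd68 had one, and its window held 24 peaks. The part of cell makeup in the Notch gene peaks was not tested.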

How the data were processed

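CUT&RUN reads of MCP tumor cells were mapped by the authors to mm10. Their methods name bowtie, removal of problematic regions and of a region near Col19a1, and peak calling against IgG with an early MACS release, whereas the submitters' processing notes name BWA, SAMtools and MACS2, so the caller's threshold is not settled; the largest q was 0.0471. The deposited list gives each peak a fold enrichment (a ratio), a -log10 p and -log10 q, a score equal to the whole part of 10 times -log10 q, and coordinates. Peak names tie the list to the library titled MCP H3K27ac 5, whose description gives a different replicate number. Of the consecutive peak numbers 584 were absent, none of them within the windows used here.

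Peaks were assigned to RefSeq genes (GRCm38.p6, 31601 curated start sites) with at least 1 bp of overlap, in Python 3.11.15 with numpy 2.4.6, pandas 2.3.3, scipy 1.17.1 and pyfaidx 0.9.0.4, and drawn with matplotlib 3.10.9. Fragments over each summit were solved from fold and p with a scale of 0.885 (all but 1 peak within 0.01 in -log10 p); they are inferred rather than counted, and without molecular identifiers they may include copies of 1 molecule. Exons and introns are those of the longest curated transcript, and distances run from the summit to the nearest start site of the gene. Shares have Wilson 95% intervals. No p-value was computed, since 1 list has no replicates. All 10 genes were named, with the strongest peak of each class; of the 37 further genes the 5 highest promoter folds and the receptors, ligands and HES/HEY genes were named. The genes and lists were chosen with earlier results of these data known. Alternatives were stricter thresholds, 1 kb promoter windows, GENCODE M21 start sites, other flanks, summit overlap, the nearest start site, 150-base windows and, added after seeing the data, leaving out Rbpj and Notch2 and the longer RBPJ letters. Fragment recovery, motif search and overlap were tested on simulated data. The window at the strongest Rbpj peak and part of the Notch3 flank are not reported here in detail.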

Additional observations from a re-analysis of the deposited data

How the results depend on the processing

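No paired analysis was possible because the list came from 1 library. Of 62 alternative values 40 stayed within 1.5 times the main count or within the interval of the main share or median. The 40 include promoter and gene body counts under other flanks, which cannot change with flank size. The number of genes with a promoter peak was 5 with 1 kb windows (43.5% of all genes), GENCODE start sites (47.0%) or summit overlap (45.4%). It was 4, without Hes1, where -log10 q had to reach 5 (37.9% of all genes) and among the strongest 25% of the peaks (29.3%). Fewer peaks remain under these thresholds by construction. At a -log10 q minimum of 5 there were 74 peaks, 10 at promoters, 29 in gene bodies and 35 in flanks, of median fold enrichment 6.62 (6.51 over all peaks kept). In the strongest 25% there were 42 peaks, 7 at promoters, 14 in gene bodies and 21 in flanks, of median 7.24 (7.80 over all kept), and the CACGTG share was 0% (3.59% over all kept). Flanks of 10 kb gave 97 peaks with 11 in flanks, and flanks of 100 kb gave 143 in flanks. With the nearest start site required to be that of 1 of the 10 genes, 39 flank peaks remained. Without Rbpj and Notch2 there were 67 peaks, 8 at promoters, 13 in gene bodies and 46 in flanks. In 150-base windows the shares were 18.6% for the RBPJ core (14.3% over all peaks), 21.8% for the N box (24.9%) and 10.9% for the MyoD E box (7.60%). The interval of the 150-base RBPJ core share, 13.3% to 25.4%, held the share of all peaks. With a median of 12 fragments, differences between most single peaks were not detectable at this depth.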
